A study of Mus musculus with 59 samples.

Results

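Solute carriers are the membrane proteins that move ions, sugars, amino acids, fatty acids, metals and metabolites into cells and between cell compartments, and their genes carry symbols that start with Slc. All genes whose symbol starts with Slc and a number were followed through a time course of myocardial infarction in the mouse, leaving out Slc2a1, Slc2a4 and Slc8a1. Only genes with a probe set assigned to that gene alone were taken, which gave 148 of the 8251 genes on the array. Of these, 20 carry an Slc25 symbol (the mitochondrial carrier family). By family, 27 were placed in other membranes of the cell such as the endoplasmic reticulum, Golgi and lysosome. Another 3 (Slc9a3r1, Slc9a3r2 and Slc4a1ap) match by name but encode proteins that bind carriers and move nothing themselves. All the rest, 98, were classed as plasma membrane by default, though some of them also lie in other membranes.

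The series held 59 Affymetrix arrays, each hybridised with RNA from a piece of mouse left ventricle taken 1 h, 4 h, 24 h, 48 h, 1 week or 8 weeks after surgery. In infarct mice the left anterior descending coronary artery (LAD) was tied, and 2 pieces were taken, the infarct between the tie and the apex and the remote myocardium above it. In sham mice the control was the piece above the LAD (upper region, called sham here), with 3 arrays for each region and time. A further 5 sham arrays, 1 at each time from 1 h to 1 week, came from the piece below the LAD (lower region). The labels used here give no strain, age or sex, and they name no genetic change or drug. Each title holds a number, read here as that of the animal. Arrays of a group are called array 1, 2 and 3 in order of that number. From 1 h to 48 h the numbers of sham and infarct mice came from separate ranges, so surgery and any difference between those sets of mice cannot be told apart.

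As background, the heart makes most of its ATP by burning fatty acids and lactate in mitochondria. Slc27a1 and Slc16a1 are among the carriers that bring these fuels into the cell, Slc25a20 brings acylcarnitines into the mitochondrion, Slc25a11 exchanges malate for 2-oxoglutarate in the shuttle that brings in reducing equivalents, and Slc25a4 sends ATP out in exchange for ADP. Ion-coupled carriers of the sarcolemma, such as the anion exchanger Slc4a3, take part in the control of pH and volume of the cardiomyocyte. Leukocytes and fibroblasts use other members, such as Slc11a1, a metal pump of the phagosome, and the amino acid exchangers built on the heavy chain Slc3a2.

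Values are intensities on a linear scale in the authors' units. Array medians lay between 157 and 214. At 1 week they were 157 to 164 in sham, 188 to 195 in the remote region and 206 to 212 in the infarct. The main fit did not rescale the arrays, so this offset is part of the differences at 1 week. A gene was tested when its intensity reached 108.2 on at least 3 arrays, which 111 of the 148 carriers did (75%), against 80.8% of all genes. The tests cover only these 111. Differences are given on the scale of log2(intensity + 45.6), with the standard error (SE) of the model, and a gene was called at an adjusted p below 0.05 (limma, Benjamini-Hochberg over all 6670 genes tested). Nothing says that the mice of a group were operated on separately, so p-values measure the spread between these samples.

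The solute carriers moved in both directions in the infarct, from 24 h to 1 week above all. Against sham, 2 higher and 3 lower were called at 1 h, 4 higher and 5 lower at 4 h, 23 higher and 20 lower at 24 h, 20 higher and 27 lower at 48 h, 45 higher and 25 lower at 1 week and 9 higher and 6 lower at 8 weeks. In the same order, 3.66%, 5.25%, 18.6%, 25.1%, 34.9% and 11.5% of all genes tested were called higher. The shares called lower were 3.12%, 6.69%, 24%, 25.8%, 25.7% and 9.66%. As a group, the carriers were therefore called about as often as genes at large, and their shares are no result by themselves. In the test for a difference at any of the 6 times, 81 of the 111 (73%) passed, against 77.7% of all genes.

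Some of these counts rested on single arrays. At 1 h, the 5 calls became 2 without infarct array 1 and 3 without sham array 1. At 4 h, the 9 calls became 5 when sham array 1, sham array 2, infarct array 2 or infarct array 3 was left out. At 8 weeks, the 15 calls became 9 without sham array 3 and 24 without infarct array 1. A fit of the 2 groups alone called 0 at 1 h and 0 at 8 weeks. With quantile normalization, which moved the median of all genes by -0.19 at 1 week, 28 carriers were higher and 32 lower at that time.

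Markers of cell types changed in the same pieces as the carriers. Of 10 tested cardiomyocyte markers, 8 were lower in the infarct at 48 h and 10 at 1 week, and their summed intensity was 99958 to 126356 at 48 h and 23042 to 73578 at 1 week, against 178956 to 200970.0 in sham at 1 week. The lowest of these belonged to infarct array 3. Of 11 macrophage markers, 8, 10 and 11 were higher at 24 h, 48 h and 1 week, with sums of 42926 to 47704 in the infarct and 4002 to 5298 in sham at 1 week. Of 10 fibroblast markers, 8 were higher and 1 lower at 1 week, and the sums were 90012 to 99513 and 25492 to 27025. Of 9 tested neutrophil markers, 6 were higher at 24 h, and of 9 endothelial markers, 5 were lower and 1 higher at 1 week. At 8 weeks 8 of 11 macrophage markers were higher in the infarct, with sums of 6547 to 14618 against 4829 to 4943 in sham, as were 8 of 10 fibroblast markers, with sums of 34917 to 73206 against 23811 to 28824. Of the cardiomyocyte markers 1 was lower at that time, with sums of 116891 to 166187 against 199175 to 205015. In such pieces fewer cells of a type and less RNA per cell cannot be told apart, and the part of the marker shifts in the carrier results was not tested.

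In the remote region at 1 week, 1 of the 10 cardiomyocyte markers was lower, with a summed intensity of 124931 to 164555, while all 11 macrophage markers and 8 of 10 fibroblast markers were higher. Without infarct array 3, the counts of carriers in the infarct at 1 week were 36 higher and 25 lower against sham, with 7 mitochondrial carriers lower and 2 higher, and 15 higher and 17 lower against the remote region. Without infarct array 3 at 8 weeks they were 4 higher and 6 lower against sham. On that array the 5 adipocyte marker genes on the array design summed to 8169, where the other infarct arrays of that time had 1107 and 2771 and the sham arrays 1077 to 1242.

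The classes had different counts of rises and falls. Of 18 tested mitochondrial carriers, 7 were lower and 1 higher in the infarct at 24 h, 7 were lower and 0 higher at 48 h, 6 were lower and 2 higher at 1 week, and 3 were lower and 0 higher at 8 weeks. Their median log2 difference was -0.24 at 24 h, -0.27 at 48 h and -0.21 at 1 week, where that of all genes was -0.02, -0.04 and 0.11. Their shares called lower at the 4 times were 38.9%, 38.9%, 33.3% and 16.7%, against 24%, 25.8%, 25.7% and 9.66% of all genes. The 67 tested plasma membrane carriers stood at 15 higher and 9 lower at 24 h, 12 higher and 14 lower at 48 h and 27 higher and 13 lower at 1 week, with medians of 0.08, -0.15 and 0.16. Of them, 22.4%, 17.9% and 40.3% were higher, against 18.6%, 25.1% and 34.9% of all genes. The shares lower were 13.4%, 20.9% and 19.4%, against 24%, 25.8% and 25.7%. The plasma membrane counts include Slc7a1, Slc7a6, Slc7a8, Slc22a4 and Slc39a8, which reached the level for testing only in groups where they are high (below). The 23 tested carriers of other organelles leaned upward, with 14 higher and 5 lower at 1 week (60.9% higher, against 34.9% of all genes) and a median of 0.38. With quantile normalization the counts of all carriers at 1 week were 28 higher and 32 lower (above). Class counts with that setting are not given here, so how far the upward lean at 1 week depends on scaling is not known. The difference between the classes was not tested.

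**Figure D1:**
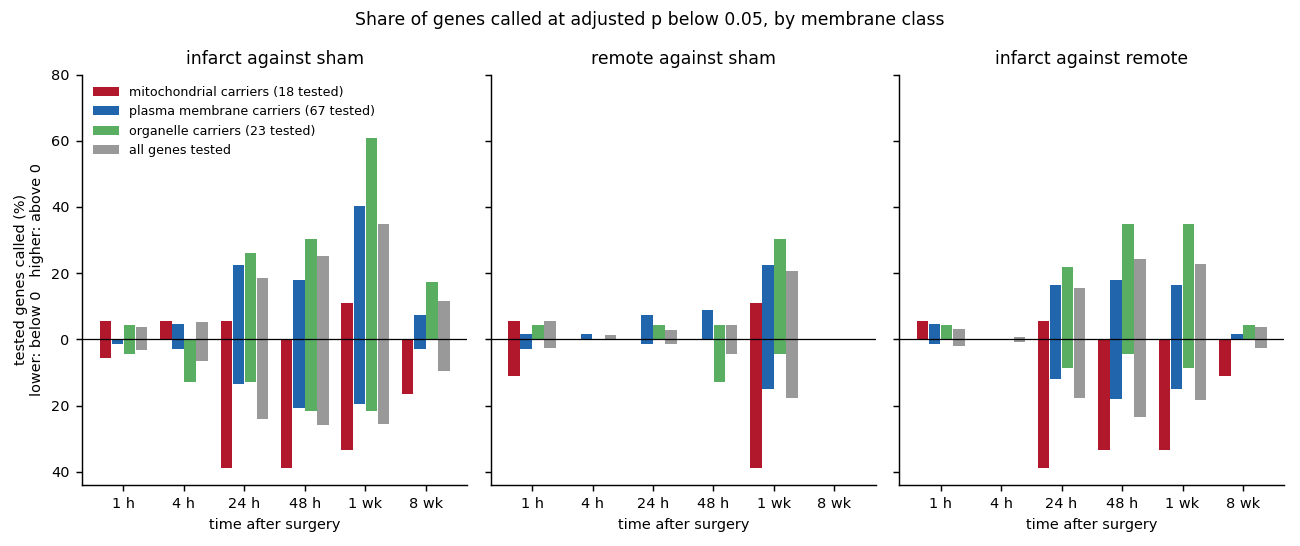
Share of tested genes (percent) called higher (bars above 0) or lower (bars below 0) at each time after surgery, for mitochondrial, plasma membrane and organelle carriers and for all genes tested, in the 3 comparisons of regions. In the infarct at 24 h and 48 h, 38.9% of the mitochondrial carriers were lower, against 24% and 25.8% of all genes. At 1 week 60.9% of the organelle carriers were higher, against 34.9% of all genes. The shares are without quantile normalization, which lowered the count of higher carriers in the infarct at 1 week (text).

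**Figure D2:**
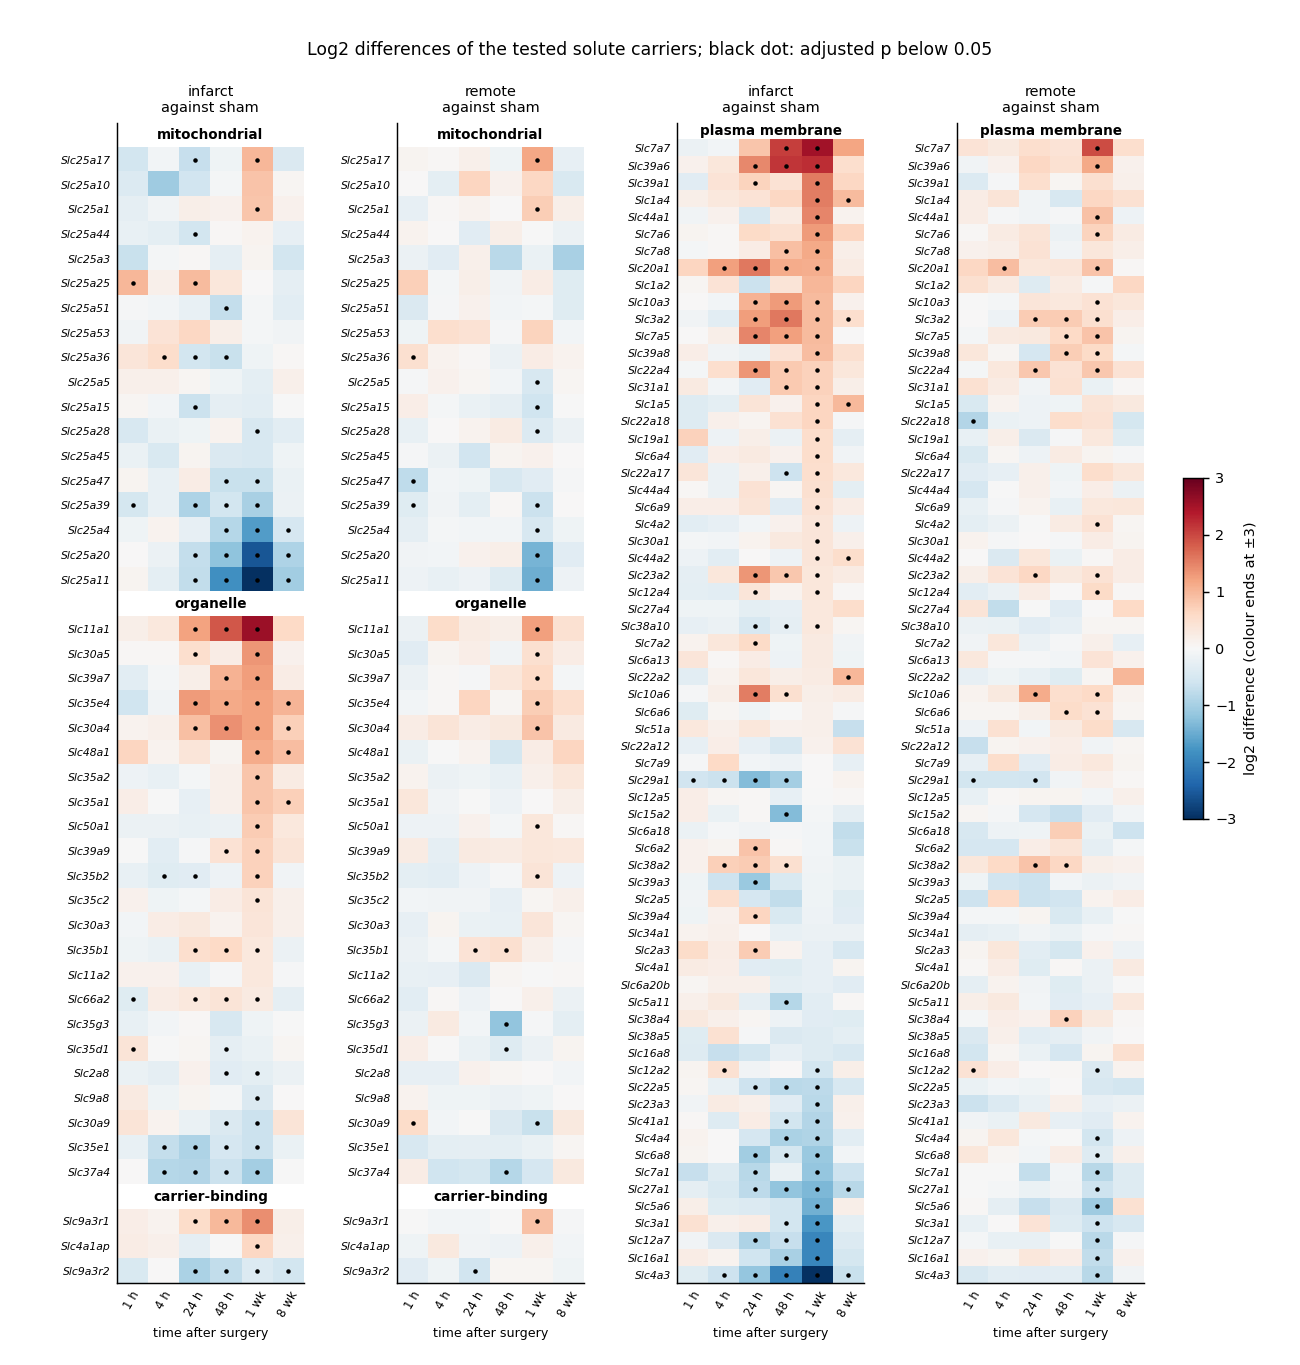
Log2 differences of the 111 tested members at the 6 times, infarct against sham and remote against sham, ordered within each class by the infarct value at 1 week; red is higher, blue lower, and a black dot marks a called difference. In the infarct at 1 week the falls of Slc25a11 and Slc4a3 reach -2.999 and -2.99, and the rises of Slc11a1 and Slc7a7 reach 2.57 and 2.53.

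The largest falls of the mitochondrial class at 48 h and 1 week were those of 3 carriers of fuel oxidation and ATP export, Slc25a11, Slc25a20 and Slc25a4, while at 24 h the largest was that of Slc25a39 (-0.92). Slc25a11 read 8469, 7326 and 8039 in sham and 3678, 5474 and 5246 in the infarct at 24 h. At 48 h the infarct arrays read 2043, 1814 and 2930.1 and at 1 week 1260.0, 1075 and 885, against 8141, 9354 and 8989 in sham at 1 week. From 24 h to 1 week the groups did not overlap. The log2 difference was -0.75 ± 0.21 at 24 h, -1.83 ± 0.21 at 48 h and -2.999 ± 0.21 (log2 ± SE, adjusted p = 2.8e-15) at 1 week. At 1 h and 4 h it was 0.09 and -0.30 and was not called.

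Slc25a20, the carnitine-acylcarnitine carrier, read 1698, 1543 and 2498 in the infarct at 48 h against 5059, 3588 and 4556 in sham. At 1 week it read 1177, 1029 and 738 against 7056, 5598 and 5249.8, a difference of -2.56 ± 0.21 (log2 ± SE, adjusted p = 5.9e-14). It was already lower at 24 h (-0.71 ± 0.21), without overlap of the arrays. Slc25a4, the ATP/ADP exchanger of heart and muscle, fell later. Its infarct arrays read 16184, 18296 and 16056 at 24 h, 12007, 11509 and 13924 at 48 h and 7530.3, 6939 and 5787 at 1 week, while the sham arrays of those times lay between 19422 and 24227. The difference was -0.25 at 24 h (adjusted p = 0.083, not called), -0.85 ± 0.12 at 48 h and -1.68 ± 0.12 (log2 ± SE, adjusted p = 2.5e-15) at 1 week.

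At 8 weeks these carriers were still lower, and the infarct arrays had drawn apart. Slc25a11 read 6141, 4646 and 2001 against 8114, 8508 and 7241 in sham, a difference of -1.03 ± 0.21 (log2 ± SE, adjusted p = 0.00063). Slc25a20 read 3528, 2085 and 1367 against 3899, 4361 and 4268, a difference of -0.93 ± 0.21. Slc25a4 read 17734, 14814 and 11829 against 20828, 20432 and 20885, a difference of -0.50 ± 0.12. Infarct array 3 was the lowest for all 3 genes. Infarct array 3 also had the highest adipocyte markers (above), and in the infarct of that time 8 of 11 macrophage and 8 of 10 fibroblast markers were higher. The part of these markers in the values was not tested. The value of Slc25a11 at 8 weeks was still called but moved to -0.58 without infarct array 3. The call of Slc25a4 at 8 weeks was lost when 1 array was left out (-0.35 without infarct array 3).

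The promoters of these 3 carriers and of Slc4a3, the plasma membrane member whose values were most like those of Slc25a4, are shown because all 4 genes were lower in the infarct at 48 h, 1 week and 8 weeks. Each line gives the 250 bases before the gene start as RefSeq annotates it on GRCm38.p6, read 5′ to 3′ on the strand of the gene, with CCAAT in capitals (the core of the box bound by the factor NF-Y, searched on both strands). Slc25a4 lies at chr8:46211063-46211312 on the minus strand, Slc25a11 at chr11:70647040-70647289 on the minus strand, Slc25a20 at chr9:108661886-108662135 on the plus strand and Slc4a3 at chr1:75546212-75546461 on the plus strand.
Slc25a4: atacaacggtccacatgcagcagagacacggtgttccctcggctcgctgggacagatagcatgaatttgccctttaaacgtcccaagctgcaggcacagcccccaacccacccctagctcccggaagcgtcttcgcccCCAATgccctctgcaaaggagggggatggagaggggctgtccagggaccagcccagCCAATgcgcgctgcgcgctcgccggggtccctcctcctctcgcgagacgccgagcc
Slc25a11: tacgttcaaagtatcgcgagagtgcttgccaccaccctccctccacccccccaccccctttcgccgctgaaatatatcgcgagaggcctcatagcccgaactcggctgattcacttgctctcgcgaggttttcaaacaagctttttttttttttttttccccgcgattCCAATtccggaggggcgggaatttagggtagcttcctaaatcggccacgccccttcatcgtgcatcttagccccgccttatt
Slc25a20: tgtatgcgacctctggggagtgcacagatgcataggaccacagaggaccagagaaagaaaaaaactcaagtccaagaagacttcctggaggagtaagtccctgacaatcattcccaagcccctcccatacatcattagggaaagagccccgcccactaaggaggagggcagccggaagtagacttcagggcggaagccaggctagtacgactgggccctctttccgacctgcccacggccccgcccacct
Slc4a3: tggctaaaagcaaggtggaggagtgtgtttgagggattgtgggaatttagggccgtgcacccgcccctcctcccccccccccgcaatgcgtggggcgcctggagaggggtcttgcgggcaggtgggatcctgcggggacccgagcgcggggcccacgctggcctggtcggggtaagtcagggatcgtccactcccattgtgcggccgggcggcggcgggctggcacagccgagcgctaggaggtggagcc
CCAAT stood 112 and 56 bases before the start of Slc25a4 and 82 bases before that of Slc25a11, and no match lay in the window of Slc25a20 or Slc4a3. Over all 32851 promoters of the table, 33.8% held it in the same window. Of the 16 tested mitochondrial carriers with an entry, 9 held it in at least 1 promoter, where 37.5% of the 27025 genes of the table did. TNAAGGTCA, the site of oestrogen-related receptors, was in none of the 4 windows and in 1.14% of all promoters. A match is a description of letters and says nothing of binding.

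**Figure D3:**
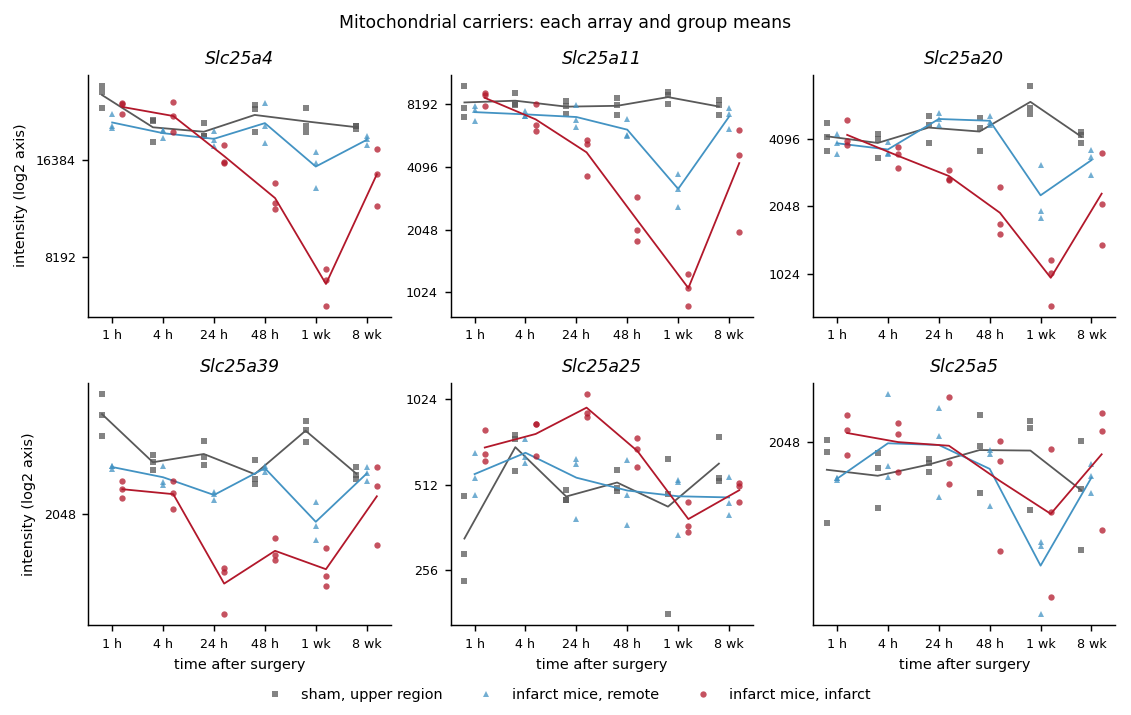
Intensity of 6 mitochondrial carriers (log2 axis) against time after surgery; each point is 1 array, lines join group means, and squares, triangles and circles are sham upper, remote and infarct. At 1 week the infarct arrays of Slc25a11 lie between 885 and 1260.0, below every remote and sham array of that time, and those of Slc25a5 overlap with the other regions.

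Slc25a39, the importer of glutathione into mitochondria, had the earliest fall. At 1 h it read 2219, 2331 and 2419 in the infarct and 3738, 3365 and 3036 in sham, a difference of -0.53 ± 0.10 (log2 ± SE, adjusted p = 0.00086). It stayed called when any of the 6 arrays was left out, but not in the fit of the 2 groups alone. The sham mean of 1 h was the highest of the 6 sham means, and Slc25a39 was called between times in sham (adjusted p = 0.0081, F test of limma). The highest remote array of any time read 2614, so the remote arrays of 1 h also lay below the sham arrays of 1 h. Between infarct and remote region at 1 h, 0 mitochondrial carriers were called lower. Slc25a39 was lower than sham in the infarct again at 24 h (-0.92 ± 0.10), 48 h (-0.54 ± 0.10) and 1 week (-0.98 ± 0.10). At 8 weeks the infarct and sham arrays overlapped.

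Other falls of the class came at 1 or 2 times. Slc25a15, the ornithine carrier, and Slc25a44, a carrier of branched-chain amino acids, were lower at 24 h (-0.64 ± 0.16 and -0.54 ± 0.13). Slc25a51, which imports NAD, was lower at 48 h (-0.72 ± 0.18, but -0.23 on its dimmer probe set), and Slc25a28, an iron carrier, at 1 week (-0.48 ± 0.17). Slc25a47 was lower at 48 h and 1 week (-0.67 and -0.66). The call of Slc25a28 at 1 week was lost when 1 array was left out (-0.38 without sham array 1 and -0.39 without infarct array 2).

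Slc25a36, a carrier of pyrimidine nucleotides, changed direction. It read 1904, 2064 and 1999.5 in the infarct at 4 h against 1233, 1409 and 1447 in sham, and 975, 1019.6 and 1054 against 1530.4, 1587 and 1855 at 48 h. The difference was 0.53 ± 0.13 at 4 h, -0.54 ± 0.13 at 24 h and -0.68 ± 0.13 at 48 h, all called. The value of Slc25a36 at 24 h was still called but moved to -0.36 without sham array 3. In sham, Slc25a36 was itself called between times (adjusted p = 0.014, F test of limma), and its sham arrays of 4 h lay below those of 48 h.

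Rises were few among the mitochondrial carriers. Slc25a25, a calcium-regulated carrier of ATP-magnesium and phosphate, read 619.6, 798 and 657 in the infarct at 1 h and 466, 293 and 235 in sham, with no overlap. The difference was 1.01 ± 0.24 (log2 ± SE, adjusted p = 0.0068) at 1 h. At 24 h it read 884, 913 and 1067 against 489, 453 and 454, a difference of 0.95 ± 0.24 (log2 ± SE, adjusted p = 0.0013). At 4 h, 48 h, 1 week and 8 weeks it was not called. The call of Slc25a25 at 1 h was lost when 1 array was left out (0.82 without sham array 3). Its sham arrays of 1 h and 24 h lay below 494.5, the median of its sham arrays over all times. In sham, Slc25a25 was called between times (adjusted p = 0.014, F test of limma).

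Slc25a1, the citrate carrier, was higher at 1 week, with 793, 797 and 775.1 in the infarct and 377, 361.5 and 539.8 in sham (0.84 ± 0.17). The remote arrays of that time read 696, 687 and 812, close to the infarct. In sham, Slc25a1 was called between times (adjusted p = 0.048, F test of limma), and 361.5 was its lowest sham array of any time. Slc25a17, which has a mitochondrial symbol but serves the peroxisome, was lower at 24 h (-0.70 ± 0.28) and higher at 1 week (0.99 ± 0.28), with sham arrays of 353, 666 and 548 and 259, 152 and 291 at those times. In sham it was called between times (adjusted p = 0.042, F test of limma), and 152 was its lowest sham array of any time. For Slc25a17 the lower sham region differed from the upper by -0.66 ± 0.15, below it in 5 of 5 pairs, and was not called (limma, adjusted p = 0.18). Slc25a5, the ATP/ADP exchanger of many cell types, was called at no time in the infarct, with 1655, 2006 and 1279 in the infarct and 1667, 2138 and 2181.8 in sham at 1 week (difference -0.28 ± 0.15, adjusted p = 0.098). The difference between its value and those of Slc25a4 and Slc25a11 was not tested. The call of Slc25a17 at 24 h was lost when 1 array was left out (-0.52 without sham array 2, -0.65 without sham array 3, -0.54 without infarct array 1 and -0.74 without infarct array 2).

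Slc25a3, Slc25a5, Slc25a10, Slc25a45 and Slc25a53 were called at no time in the infarct. The probe set of Slc25a3, the phosphate carrier, was dim, with sham arrays of 38.6, 31.6 and 107 at 24 h and infarct arrays of 47.7, 60.5 and 65.6, so a change would be hard to see. Slc25a10, the dicarboxylate carrier, ranged from 58.5 to 322 over the infarct arrays, with a difference of -1.06 ± 0.41 at 4 h (adjusted p = 0.082). Slc25a14 and Slc25a48 did not reach the level for testing.

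Carriers of acid, base and chloride held the largest fall at the plasma membrane. Slc4a3, which exchanges chloride for bicarbonate in heart and brain, fell step by step in the infarct. Its infarct arrays read 3751, 3419 and 3690.3 at 4 h, 2267, 2298 and 3099 at 24 h, 1073, 1347 and 1778 at 48 h and 945, 818 and 433 at 1 week. The sham arrays of these times lay between 4869.5 and 7114, above every infarct array. The difference was -0.63 ± 0.19 at 4 h, -1.17 ± 0.19 at 24 h, -2.03 ± 0.19 at 48 h, -2.99 ± 0.19 (log2 ± SE, adjusted p = 4.1e-16) at 1 week and -0.66 ± 0.19 at 8 weeks. It was the only member called at 5 times. The call of Slc4a3 at 4 h was lost when 1 array was left out (-0.64 without sham array 1, -0.56 without sham array 2, -0.65 without infarct array 1, -0.58 without infarct array 2 and -0.65 without infarct array 3). The call of Slc4a3 at 8 weeks was lost when 1 array was left out (-0.45 without infarct array 3).

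Slc4a4, which carries sodium with bicarbonate, was lower at 48 h (-0.95 ± 0.21) and 1 week (-0.89 ± 0.21). Slc4a2, an anion exchanger of many tissues, was higher at 1 week (0.37 ± 0.12), and quantile normalization ended that call. Slc9a8, a sodium-proton exchanger of the Golgi, was lower at 1 week (-0.42 ± 0.09). Slc4a1, the anion exchanger of red cells, was called at no time.

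Among carriers that couple potassium or sodium to chloride, Slc12a7, a potassium-chloride exporter, fell. It read 1882, 1594 and 1477 in the infarct at 24 h against 3539, 3477 and 2655 in sham, and 1036, 1118 and 605 against 3524, 3831 and 3416 at 1 week. The difference was -0.94 ± 0.16 at 24 h, -0.70 ± 0.16 at 48 h and -1.96 ± 0.16 (log2 ± SE, adjusted p = 1.8e-13) at 1 week. Slc12a4, of the same kind, was higher by 0.36 ± 0.13 at 24 h and 0.34 ± 0.13 at 1 week. Slc12a2, which imports sodium, potassium and chloride, was higher at 4 h (0.47 ± 0.13) and lower at 1 week (-0.55 ± 0.13). The call of Slc12a4 at 24 h was lost when 1 array was left out (0.29 without sham array 1, 0.36 without sham array 3 and 0.28 without infarct array 1). The call of Slc12a4 at 1 week was lost when 1 array was left out (0.23 without sham array 3 and 0.27 without infarct array 2). The call of Slc12a2 at 4 h was lost when 1 array was left out (0.44 without sham array 2, 0.45 without infarct array 2 and 0.45 without infarct array 3).

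Among carriers of fuels, Slc27a1 fell from 24 h and Slc16a1 from 48 h. Slc27a1, a fatty acid transport protein, read 469, 598 and 867 at 48 h against 1725, 1404 and 1307 in sham. The difference was -0.78 ± 0.18 at 24 h, -1.17 ± 0.18 at 48 h, -1.35 ± 0.18 (log2 ± SE, adjusted p = 1.5e-08) at 1 week and -0.82 ± 0.18 at 8 weeks. The other fatty acid carrier tested, Slc27a4, was called at no time and its difference stood at 0.32 at 1 week.

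Slc16a1, the main lactate and pyruvate carrier, read 635, 771 and 695 in the infarct at 1 h and 715, 706 and 668 at 4 h, overlapping with sham. At 48 h it read 249, 291 and 520.3 against 599, 869 and 669.5, and at 1 week 178, 129 and 78.2 against 583, 669 and 592. The difference was -0.97 ± 0.25 at 48 h and -1.96 ± 0.25 (log2 ± SE, adjusted p = 1.1e-08) at 1 week. At 8 weeks the arrays read 684, 459 and 169, from above sham to well below it, and the difference of -0.53 ± 0.25 was not called (adjusted p = 0.13).

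Slc22a5, the importer of carnitine, was lower at 24 h, 48 h and 1 week (-0.62 ± 0.20, -0.82 ± 0.20 and -0.79 ± 0.20). Its relative Slc22a4, which takes up ergothioneine, went the other way, with 153, 98.1 and 138 in the infarct at 24 h against 12, 21.6 and 39.6 in sham (1.32 ± 0.24, log2 ± SE). All sham arrays of Slc22a4 lay below the level used for testing, which it reached on 5 arrays of infarct mice. It was tested through the groups where it is high, so its values are a description. The call of Slc22a5 at 24 h was lost when 1 array was left out (-0.53 without sham array 2).

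Slc6a8, the creatine importer, read 1016, 907 and 1065 in the infarct at 24 h and 2193, 2163 and 1969 in sham. The difference was -1.05 ± 0.13 (log2 ± SE, adjusted p = 8.5e-09) at 24 h, -0.52 ± 0.13 at 48 h and -1.11 ± 0.13 at 1 week, with -0.08 at 8 weeks. The call at 48 h was lost with the mean of its 2 probe sets, the other of which had a mean intensity of 14.4 over all arrays. That dim probe set had the opposite sign at 48 h and 1 week. Slc6a6, the taurine importer, was called at no time in the infarct, with a difference of 0.16 ± 0.16 at 1 week, and was higher in the remote region by 0.54 ± 0.16 at 48 h and 0.44 ± 0.16 at 1 week. The call of Slc6a6 at 48 h was lost when 1 array was left out (0.51 without sham array 1, 0.56 without sham array 2, 0.56 without sham array 3 and 0.38 without remote array 3). The call of Slc6a6 at 1 week was lost when 1 array was left out (0.44 without sham array 1, 0.47 without sham array 2, 0.40 without sham array 3 and 0.29 without remote array 1).

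Slc29a1, which carries adenosine and other nucleosides, was lower from 1 h to 48 h. It read 321, 490.0 and 466 in the infarct at 24 h and 1023, 1248 and 1038 in sham. The difference was -0.57 ± 0.16 at 1 h, -0.65 ± 0.16 at 4 h, -1.29 ± 0.16 (log2 ± SE, adjusted p = 1.3e-08) at 24 h, -1.01 ± 0.16 at 48 h and 0.00 at 1 week. A second, dimmer probe set of the gene had differences of 0.06 at 1 h, 0.36 at 4 h and 0.61 at 24 h, so the sign depended on the probe set at those times. The call of Slc29a1 at 1 h was lost when 1 array was left out (-0.56 without sham array 1, -0.44 without sham array 2 and -0.50 without infarct array 1). The remote region also differed from sham, by -0.55 at 1 h and -0.58 at 24 h (called) and -0.55 at 4 h (not called). Infarct and remote region differed by -0.02 at 1 h and -0.09 at 4 h (not called), and by -0.72 at 24 h and -0.91 at 48 h (called). In sham, Slc29a1 was called between times (adjusted p = 0.0039, F test of limma).

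Among the sugar carriers tested, Slc2a3, a high-affinity glucose carrier, was higher at 24 h (0.76 ± 0.28), with 125, 238 and 192 in the infarct and 79.8, 112 and 74 in sham. Quantile normalization ended that call. Slc50a1 was higher at 1 week (0.77 ± 0.12), and Slc2a8, a glucose carrier of inner membranes, was lower at 48 h and 1 week (-0.33 ± 0.11 and -0.30 ± 0.11). The call of Slc2a3 at 24 h was lost when 1 array was left out (0.72 without sham array 1, 0.68 without sham array 3, 0.60 without infarct array 2 and 0.73 without infarct array 3). The call of Slc2a8 at 48 h was lost when 1 array was left out (-0.25 without sham array 1 and -0.27 without infarct array 1). The call of Slc2a8 at 1 week was lost when 1 array was left out (-0.24 without sham array 1, -0.27 without sham array 3 and -0.28 without infarct array 2).

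**Figure D4:**
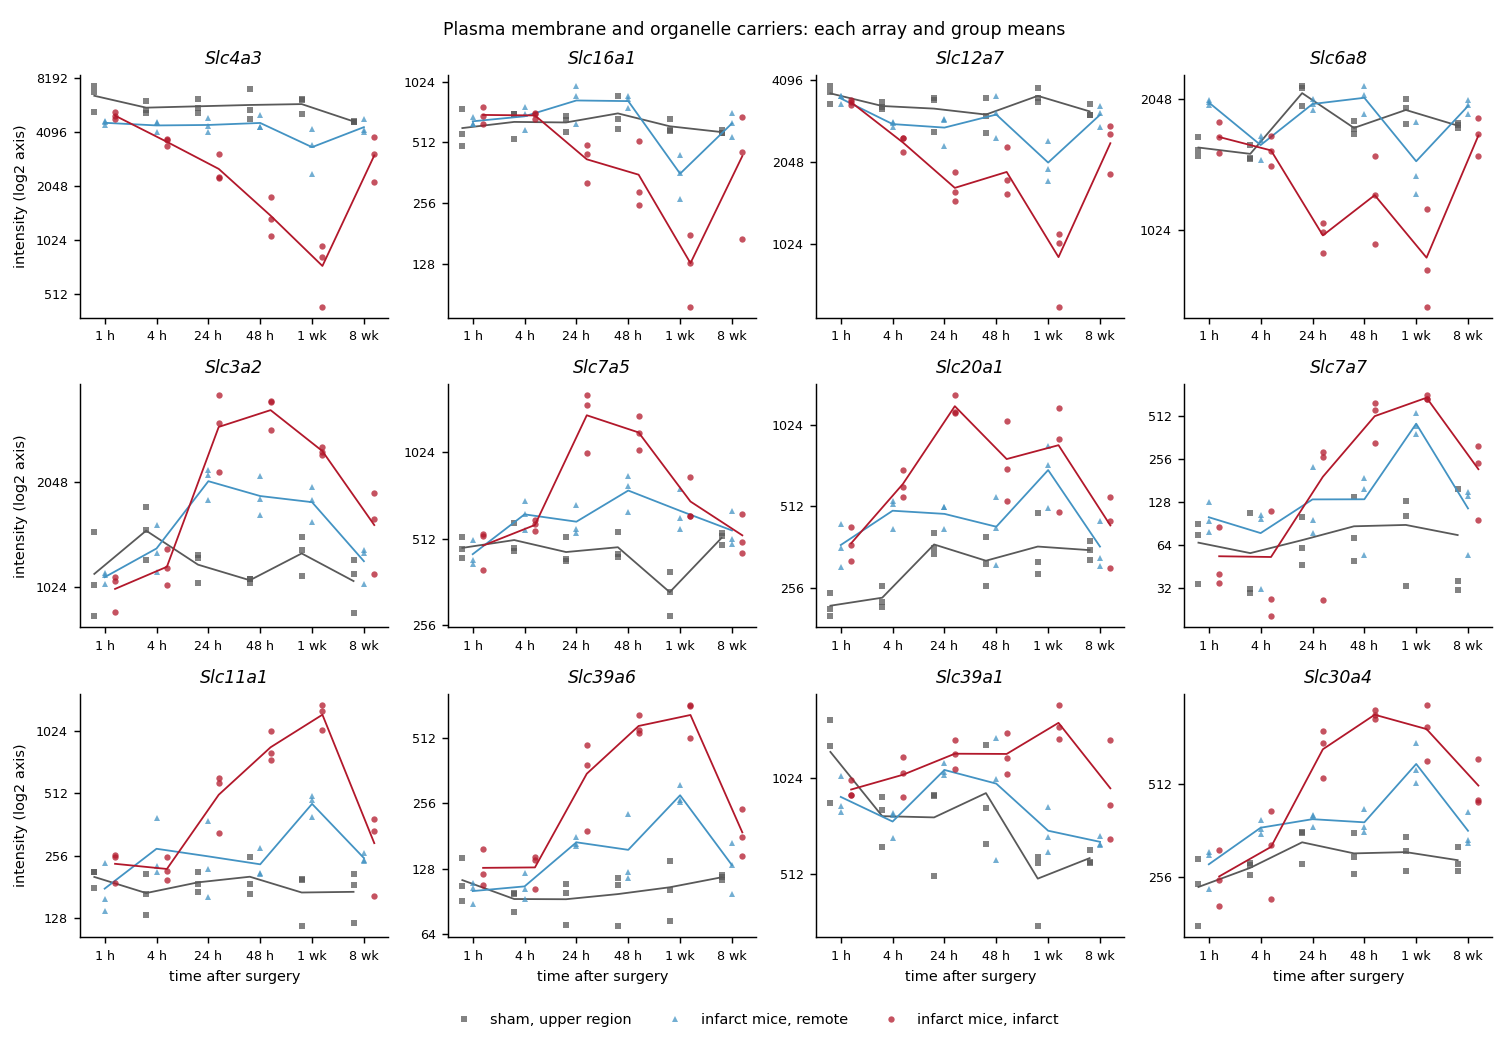
Intensity of 12 plasma membrane and organelle carriers (log2 axis) against time after surgery; each point is 1 array, lines join group means, and squares, triangles and circles are sham upper, remote and infarct. In the top row the infarct means fall to 1 week, and in the lower rows the infarct arrays of Slc11a1 at 1 week, 1032, 1363 and 1269, lie above all remote and sham arrays.

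Of 19 tested amino acid carriers, 4 were higher and 2 lower in the infarct at 24 h, 5 higher and 2 lower at 48 h and 9 higher and 2 lower at 1 week. Of all genes, 18.6%, 25.1% and 34.9% were higher and 24%, 25.8% and 25.7% lower at these times, so the counts of rises at 24 h and 48 h were near those of genes at large. Their median log2 difference at 1 week was 0.32, against 0.11 for all genes. The rises include Slc7a6 at 1 week and Slc7a8 at 48 h and 1 week, and the falls at 24 h and 1 week include Slc7a1. These genes reached the level for testing only in groups where they are high (below), so the count and median at 1 week are a description. Several of the amino acid carriers that rose work as pairs. Slc3a2 is the heavy chain that brings the light chains Slc7a5, Slc7a6, Slc7a7 and Slc7a8 to the plasma membrane, where they exchange large neutral or cationic amino acids. All 5 were higher at 1 week and all but Slc7a6 at 48 h, but Slc7a6 and Slc7a8 reached the level for testing on infarct arrays alone, 4 each, and therefore add no support.

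Slc3a2 read 3626, 3016 and 2183 in the infarct at 24 h and 3467, 2891 and 3499 at 48 h, against 1269, 1051 and 1241 and 1081, 1052 and 1081 in sham. The difference was -0.32 at 4 h (not called), 1.24 ± 0.18 at 24 h, 1.57 ± 0.18 (log2 ± SE, adjusted p = 9.3e-10) at 48 h and 0.95 ± 0.18 at 1 week. At 8 weeks it was 0.50 ± 0.18. Slc7a5 read 1491, 1608 and 1009.8 at 24 h against 517.1, 428 and 435. Its difference was 1.46 ± 0.15 (log2 ± SE, adjusted p = 3.4e-10) at 24 h, 1.24 ± 0.15 at 48 h, 0.95 ± 0.15 at 1 week and 0.02 at 8 weeks. The differences of both chains were largest at 24 h or 48 h. The call of Slc3a2 at 8 weeks was lost when 1 array was left out (0.36 without sham array 1, 0.53 without sham array 3, 0.44 without infarct array 2 and 0.34 without infarct array 3).

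Slc7a7 and Slc7a8 were later. Slc7a7, mutated in lysinuric protein intolerance and expressed in macrophages, read 262, 288 and 26.5 in the infarct at 24 h, with array 3 below the sham arrays. It read 636, 563 and 331.6 at 48 h and 675, 669.7 and 715 at 1 week, against 33, 102 and 130.3 in sham, where only array 3 reached the level for testing. The difference was 2.08 ± 0.46 at 48 h and 2.53 ± 0.46 (log2 ± SE, adjusted p = 7e-06) at 1 week. Slc7a8 was higher by 0.89 ± 0.24 at 48 h and 1.14 ± 0.24 at 1 week, and Slc7a6 by 1.29 ± 0.25 at 1 week. Their highest sham arrays read 77.3 and 73.9 and their highest remote arrays 92.4 and 93.5, below the level for testing, so these genes were tested through the infarct arrays where they are high, and their values are a description.

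Of 22 tested genes of the amino acid and integrated stress response, 12 were higher and 2 lower in the infarct at 24 h. Of all genes, 18.6% were higher and 24% lower at that time. This response is run by the factor ATF4, and the promoter of Slc3a2 is given for that reason. It lies at chr19:8713898-8714147 (GRCm38.p6, minus strand), 250 bases before the start annotated by RefSeq, read 5′ to 3′ on the strand of the gene.
Slc3a2: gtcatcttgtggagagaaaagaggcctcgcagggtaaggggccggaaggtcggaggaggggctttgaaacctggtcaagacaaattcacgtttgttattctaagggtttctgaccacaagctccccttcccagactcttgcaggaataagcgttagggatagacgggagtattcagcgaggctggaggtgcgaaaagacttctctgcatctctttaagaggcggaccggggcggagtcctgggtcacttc
TGATGNAA, the composite site of ATF4 and its partners, had no match on either strand of this window, nor had CCAAT or TNAAGGTCA, so nothing is in capitals. TGATGNAA was in 3.45% of all promoters and in 3 of the 93 tested carriers with an entry.

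The carriers of neutral amino acids that work with sodium were higher at other times. Slc38a2, which takes up glutamine and alanine and answers to amino acid lack, read 4686, 5069 and 4478 in the infarct at 4 h against 2354, 2664 and 3715 in sham, and 7539.5, 5960.3 and 4447 against 3476, 3041 and 3716 at 24 h. The difference was 0.72 ± 0.21 at 4 h, 0.75 ± 0.21 (log2 ± SE, adjusted p = 0.003) at 24 h, 0.49 ± 0.21 at 48 h and -0.11 at 1 week. Its 3 other probe sets had mean intensities of 3.7 to 20.9 over all arrays, and the mean over all 4 was -0.05 at 48 h. Slc1a4 read 813, 947 and 1079 at 1 week against 211, 321 and 369 (1.54 ± 0.27), and Slc1a5, the main glutamine carrier of dividing cells, was higher by 0.65 ± 0.21 at 1 week and 0.97 ± 0.21 at 8 weeks. At 8 weeks Slc1a5 read 213, 273 and 643 in the infarct, with array 3 far above the others, against 117, 158 and 183 in sham. The call of Slc38a2 at 4 h was lost when 1 array was left out (0.58 without sham array 1, 0.67 without sham array 2 and 0.65 without infarct array 2). The call of Slc38a2 at 48 h was lost when 1 array was left out (0.35 without sham array 1, 0.51 without sham array 2 and 0.23 without infarct array 3). The value of Slc1a5 at 8 weeks was still called but moved to 0.56 without infarct array 3.

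Some amino acid carriers fell. Slc3a1, the heavy chain of the cystine carrier, read 34.8, 42.7 and 48 at 1 week against 329.9, 204 and 221 (-1.74 ± 0.22, log2 ± SE, adjusted p = 6.9e-09). The infarct arrays were below the level used for testing. Slc7a1, which takes up arginine and lysine, was lower at 24 h (-0.84 ± 0.27) and 1 week (-1.16 ± 0.27). It reached the level for testing on 4 arrays, all sham, with at most 70.4 in the infarct and 94.4 in the remote region, so it was tested through the group where it is high, and these values are a description. Slc38a4 was called at no time in the infarct. The call of Slc7a1 at 24 h was lost when 1 array was left out (-0.68 without sham array 2 and -0.71 without infarct array 2).

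Most carriers of metals were higher at 1 week, with 11 higher and 2 lower of 17 tested and a median log2 difference of 0.69, where 34.9% of all genes were higher and 25.7% lower. Quantile normalization lowered the count of higher carriers at that time (above), and its count for metal carriers is not given here. At 24 h the count was 6 higher and 1 lower of 17, against 18.6% and 24% of all genes, and at 48 h 6 higher and 2 lower of 17, against 25.1% and 25.8%. Slc11a1, which pumps iron and manganese out of the phagosome of macrophages, read 609, 572 and 328.9 in the infarct at 24 h, 1017, 799 and 738 at 48 h and 1032, 1363 and 1269 at 1 week. Its sham arrays lay between 118 and 254 at these times, with no overlap. The difference was 1.21 ± 0.24, 1.85 ± 0.24 and 2.57 ± 0.24 (log2 ± SE, adjusted p = 4.1e-12) at the 3 times and 0.60 at 8 weeks (adjusted p = 0.068). The macrophage markers rose in the same pieces, and their part in this rise was not tested. Slc11a2, the iron importer of the endosome, was called at no time, though its probe sets disagreed at 24 h, with -0.21 on the brighter one used here and 0.98 on the other.

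Zinc enters the cytosol through Slc39 carriers and leaves it through Slc30 carriers. Slc39a6 read 650.5, 539 and 556 in the infarct at 48 h against 70.0, 108 and 116 in sham, and 719, 513.9 and 728 against 74.1, 102 and 139.8 at 1 week. The difference was 1.45 ± 0.21 at 24 h, 2.14 ± 0.21 at 48 h and 2.22 ± 0.21 (log2 ± SE, adjusted p = 3.2e-12) at 1 week. Slc39a7 of the endoplasmic reticulum was higher by 1.04 ± 0.17 at 48 h and 1.25 ± 0.17 at 1 week, Slc39a1 by 1.57 ± 0.25 and Slc39a8 by 0.92 ± 0.22 at 1 week. Slc39a8 reached the level for testing on 5 arrays, all of infarct mice, with at most 98.7 in sham. It was tested through the groups where it is high, so its values are a description. It is among the metal carriers counted as higher at 1 week. Slc39a3 was lower at 24 h (-1.10 ± 0.22), with infarct arrays of 121, 58.8 and 22.4, of which arrays 2 and 3 were below the level used for testing.

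On the export side, Slc30a4, of intracellular vesicles, read 833, 892 and 859.7 at 48 h against 262, 296 and 356. It was higher by 0.91 ± 0.17 at 24 h, 1.38 ± 0.17 (log2 ± SE, adjusted p = 6.2e-09) at 48 h, 1.20 ± 0.17 at 1 week and 0.71 ± 0.17 at 8 weeks, though the mean of its probe sets ended the call at 24 h. The other probe set of Slc30a4 had the opposite sign at 24 h, 48 h and 8 weeks. Slc30a5 of the Golgi was higher at 1 week (1.34 ± 0.19), while Slc30a9 was lower at 48 h and 1 week (-0.43 ± 0.17 and -0.64 ± 0.17). Of the carriers of other metals, the copper importer Slc31a1 was higher by 0.79 ± 0.17 at 48 h and 0.69 ± 0.17 at 1 week. Its other probe set, with a mean intensity of 531 against 844, showed only 0.03 and 0.11 at these times. Slc48a1, which moves haem, was higher by 1.10 ± 0.27 at 1 week. Slc41a1, which moves magnesium, was lower (-0.56 ± 0.15 and -0.88 ± 0.15) at 48 h and 1 week. The call of Slc30a9 at 48 h was lost when 1 array was left out (-0.40 without sham array 2, -0.31 without sham array 3, -0.37 without infarct array 1 and -0.40 without infarct array 2).

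Slc20a1, a sodium-phosphate importer, had the largest rise of the tested carriers at 4 h. It read 697, 555 and 604 in the infarct at 4 h against 260.4, 217 and 227 in sham, and 1144, 1316 and 1135 against 341, 358 and 409 at 24 h, without overlap at either time. The difference was 0.66 ± 0.23 at 1 h (adjusted p = 0.071, not called), 1.24 ± 0.23 (log2 ± SE, adjusted p = 0.00015) at 4 h, 1.58 ± 0.23 at 24 h, 1.11 ± 0.23 at 48 h and 1.10 ± 0.23 at 1 week. At 8 weeks it was 0.24 and not called.

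Of 8 tested carriers of organic ions, 3 were higher and 1 lower at 24 h, against 18.6% and 24% of all genes. The 3 include Slc22a4, whose values are a description (above). Of 7 carriers of vitamins, choline and thyroid hormone, 5 were higher and 2 lower at 1 week, against 34.9% and 25.7%. Slc10a6, which takes up sulphated steroids, read 633, 926 and 763 in the infarct at 24 h and 166, 246 and 298 in sham (1.53 ± 0.19, log2 ± SE, adjusted p = 1.6e-08). Its sham arrays of 4 h, 541, 526 and 463, were higher than those of 24 h, and it was called between times in sham (adjusted p = 0.00028). Slc10a3 was higher by 1.04 ± 0.16 at 24 h and 1.28 ± 0.16 at 48 h. Slc23a2, which takes up vitamin C, read 1494, 1960.3 and 2336 at 24 h against 729, 711 and 734 (1.33 ± 0.14, log2 ± SE, adjusted p = 2.1e-10) and was higher by 0.82 ± 0.14 at 48 h. Slc22a2, an organic cation carrier, was called higher at 8 weeks, with 151, 98.2 and 159 in the infarct and 77.6, 33.2 and 29.9 in sham (0.99 ± 0.29, log2 ± SE, adjusted p = 0.012). It was not called at the other times, and the test of its infarct difference between times did not pass (adjusted p = 0.11, F test of limma). Slc15a2, a peptide carrier, was lower at 48 h, with 12.6, 10.7 and 10.4 against 91, 93 and 102 (-1.31 ± 0.32), all below the level used for testing. Slc44a1, a choline carrier, was higher at 1 week (1.46 ± 0.26) with a wide spread of 434, 462 and 1161. Slc5a6, which takes up biotin and pantothenate, was lower at 1 week (-1.43 ± 0.24). The call of Slc22a2 at 8 weeks was lost when 1 array was left out (0.89 without sham array 2, 0.86 without sham array 3 and 0.90 without infarct array 3).

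Of 10 tested carriers of nucleotide sugars and of the endoplasmic reticulum and Golgi, 6 were higher and 2 lower at 1 week, against 34.9% and 25.7% of all genes. Slc35a1 and Slc35a2, which bring CMP-sialic acid and UDP-galactose into the Golgi, were higher by 0.82 ± 0.15 and 0.84 ± 0.19. Slc35b1 was higher at 24 h, 48 h and 1 week (0.50, 0.61 and 0.32), and Slc35e4 at every time from 24 h on (1.28, 1.13, 1.20 and 1.03). Slc37a4, which brings glucose 6-phosphate into the endoplasmic reticulum, was lower from 4 h to 1 week. Its mean at 4 h was 297 ± 33.1 in the infarct and 568 ± 35.5 in sham (SD, n = 3), without overlap, with differences of -0.84 ± 0.25 at 4 h, -0.87 ± 0.25 at 24 h and -1.02 ± 0.25 at 1 week. Slc35e1 was lower at the same 4 times (-0.71, -0.93, -0.50 and -0.65). Its other probe set, with a mean intensity of 365 against 458, showed -0.20, -0.12, -0.59 and -0.12, so the size at 4 h, 24 h and 1 week depended on the probe set. The call of Slc35b1 at 1 week was lost when 1 array was left out (0.22 without infarct array 2). The call of Slc35e4 at 8 weeks was lost when 1 array was left out (0.51 without sham array 3 and 0.85 without infarct array 3). The call of Slc37a4 at 4 h was lost when 1 array was left out (-0.80 without sham array 1, -0.86 without sham array 3, -0.77 without infarct array 2 and -0.85 without infarct array 3). The call of Slc35e1 at 4 h was lost when 1 array was left out (-0.59 without sham array 1, -0.65 without sham array 3 and -0.62 without infarct array 3). The call of Slc35e1 at 48 h was lost when 1 array was left out (-0.45 without sham array 1, -0.53 without sham array 2, -0.52 without sham array 3, -0.41 without infarct array 1 and -0.47 without infarct array 3). The call of Slc35e1 at 1 week was lost when 1 array was left out (-0.45 without infarct array 3).

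The proteins that bind carriers went in opposite directions. Slc9a3r1, a scaffold of the sodium-proton exchanger of epithelia, was higher by 0.97 ± 0.18 at 48 h and 1.40 ± 0.18 (log2 ± SE, adjusted p = 4.9e-09) at 1 week. Slc9a3r2, a scaffold of the same family, was lower at 24 h, with -0.96 ± 0.16 (log2 ± SE, adjusted p = 7.4e-06), and at 48 h (-0.73 ± 0.16). Slc4a1ap was higher at 1 week (0.62). The call of Slc4a1ap at 1 week was lost when 1 array was left out (0.48 without infarct array 2).

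In the remote myocardium the carriers changed mainly at 1 week. Against sham, 3 higher and 4 lower were called at 1 h, 1 higher and 0 lower at 4 h, 6 higher and 2 lower at 24 h, 7 higher and 3 lower at 48 h and 25 higher and 18 lower at 1 week. At 8 weeks limma called 0 in either direction, with 10 of the 111 carriers at an unadjusted p below 0.05, against 545 of all 6670 genes. Of all genes, 5.52%, 1.42%, 2.94%, 4.47%, 20.7% and 0.12% were called higher at the 6 times. The shares called lower were 2.5%, 0.315%, 1.56%, 4.35%, 17.7% and 0%. In the test at any time, 46 of the 111 carriers passed, or 41.4%, against 42.2% of all genes. These comparisons use the same sham arrays as those of the infarct.

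Leaving out 1 array moved most of these counts. The 43 calls of 1 week became 27 without remote array 3. The 10 of 48 h became 5 without remote array 3 and 6 without sham array 1 or sham array 2, and the 8 of 24 h became 2 without sham array 2, 3 without remote array 2 and 5 without sham array 1. The 7 of 1 h became 1 without remote array 1, 2 without sham array 2 and 3 without sham array 1 or remote array 2, and the single call of 4 h was lost without sham array 2, sham array 3 or remote array 1. The fit of the 2 groups alone called 2 at 1 h, 0 at 24 h and 0 at 48 h. With quantile normalization, which moved the median of all genes by -0.13, 17 were higher and 22 lower at 1 week.

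At 1 week 7 of the 18 mitochondrial carriers were lower in the remote region and 2 higher, against 17.7% and 20.7% of all genes. Slc25a11 read 3777, 3204 and 2633 there, between the infarct and the sham arrays and without overlap with either, a difference from sham of -1.46 ± 0.21 (log2 ± SE, adjusted p = 9.5e-07). Slc25a20 read 3109, 1944 and 1810.4 (-1.40 ± 0.21, log2 ± SE, adjusted p = 1.1e-06), and Slc25a4 17407, 16093 and 13400.2 (-0.47 ± 0.12, log2 ± SE, adjusted p = 0.0016). Slc25a39 was lower (-0.65 ± 0.10). Slc25a1 and Slc25a17 were higher in the remote region by 0.74 ± 0.17 and 1.17 ± 0.28, where the infarct differed from sham by 0.84 and 0.99. Both genes were called between times in sham (above), and their lowest sham arrays were of 1 week. At 24 h and 48 h no mitochondrial carrier was called in the remote region, and the differences of Slc25a11 and Slc25a20 at 48 h were -0.38 ± 0.21 and 0.17 ± 0.21.

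At the plasma membrane, Slc4a3 read 4278, 3459 and 2404 in the remote region at 1 week, a difference of -0.82 ± 0.19 (log2 ± SE, adjusted p = 0.00074). Slc12a7 was lower (-0.81 ± 0.16), Slc27a1 (-0.62 ± 0.18), Slc16a1 (-0.73 ± 0.25) and Slc5a6 (-1.07 ± 0.24). Slc7a7 was higher at 1 week, with 385, 437 and 534 (1.96 ± 0.46, log2 ± SE, adjusted p = 0.00066), as were Slc11a1 (1.23 ± 0.24), Slc39a6 (1.13 ± 0.21), Slc20a1 (0.86 ± 0.23) and Slc7a5 (0.85 ± 0.15). The call of Slc27a1 at 1 week was lost when 1 array was left out (-0.48 without remote array 3). The call of Slc16a1 at 1 week was lost when 1 array was left out (-0.67 without sham array 2 and -0.60 without remote array 3).

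Before 1 week, the carriers higher in the remote region came from several substrate groups. Of the 6 at 24 h, 2 were amino acid carriers and 2 carriers of organic ions, and of the 7 at 48 h, 4 were amino acid carriers. The 2 carriers of organic ions include Slc22a4, whose values are a description (above). Slc38a2 was higher at 24 h, with 8045, 6572 and 4577 against 3476, 3041 and 3716 in sham (0.85 ± 0.21, log2 ± SE, adjusted p = 0.0088). Slc3a2 was higher at 48 h, with 1825, 1649.7 and 2122 against 1081, 1052 and 1081 (0.77 ± 0.18, log2 ± SE, adjusted p = 0.0038). Slc10a6 was higher at 24 h, with 533, 785 and 394.6 (1.11 ± 0.19, log2 ± SE, adjusted p = 0.00013). Slc20a1 was the only carrier called at 4 h, with 535, 521 and 420.0 (0.94 ± 0.23, log2 ± SE, adjusted p = 0.016). The call of Slc38a2 at 24 h was lost when 1 array was left out (0.77 without sham array 2, 0.68 without remote array 1 and 0.80 without remote array 2). The call of Slc20a1 at 4 h was lost when 1 array was left out (0.89 without sham array 2, 0.92 without sham array 3, 0.89 without remote array 1 and 0.88 without remote array 2).

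Between infarct and remote region of the same mice, the carriers differed mainly from 24 h to 1 week. In the infarct, 5 higher and 1 lower were called at 1 h, 18 higher and 18 lower at 24 h, 21 higher and 20 lower at 48 h, 21 higher and 19 lower at 1 week and 2 higher and 2 lower at 8 weeks. At 4 h limma called 0 carriers in either direction, with 13 of the 111 at an unadjusted p below 0.05, against 872 of all 6670 genes. Of all genes, 3.16%, 0.705%, 15.5%, 24.4%, 22.8% and 3.78% were called higher in the infarct at the 6 times. The shares called lower were 1.92%, 0.72%, 17.8%, 23.6%, 18.4% and 2.71%. In the test at any time, 63 carriers passed (56.8%), against 67.2% of all genes. At 24 h the third infarct and the third remote array carry different title numbers and were not paired.

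Of the mitochondrial carriers, 7 were lower in the infarct than in the remote region at 24 h, 6 at 48 h and 6 at 1 week, and 1 was higher at 24 h, Slc25a25 (0.76 ± 0.23, log2 ± SE, adjusted p = 0.0079). The shares lower were 38.9%, 33.3% and 33.3%, against 17.8%, 23.6% and 18.4% of all genes. Slc25a11 was lower at 48 h, with -1.45 ± 0.20, and at 1 week, with -1.54 ± 0.20 (log2 ± SE, adjusted p = 4e-08), and Slc25a20 at 48 h, with -1.37 ± 0.19. The largest difference of the plasma membrane class was again that of Slc4a3, -1.71 ± 0.18 at 48 h and -2.17 ± 0.18 (log2 ± SE, adjusted p = 3.9e-12) at 1 week. Slc6a8 was lower at 24 h (-0.97 ± 0.12) and Slc16a1 at 24 h, 48 h and 1 week (-0.93 ± 0.24, -1.17 ± 0.23 and -1.23 ± 0.23). Slc7a5 and Slc20a1 were higher in the infarct at 24 h (1.16 ± 0.14 and 1.24 ± 0.21), and Slc11a1, Slc7a7 and Slc39a6 at 48 h (1.68 ± 0.22, 1.68 ± 0.42 and 1.67 ± 0.19). The call of Slc25a25 at 24 h was lost when 1 array was left out (0.58 without remote array 3).

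At 1 h the 6 calls between the regions became 1 without infarct array 1 or remote array 1, 2 without infarct array 3 and 3 without remote array 2 or 3. At 8 weeks the 4 calls (Slc1a5 and Slc35a1 higher, Slc25a11 and Slc25a4 lower) became 0 without infarct array 3 or remote array 2, 1 without remote array 3, 2 without infarct array 2 and 16 without infarct array 1. With quantile normalization, 2 were higher and 4 lower at 8 weeks. With the title number as a fixed replicate block, the 36, 41 and 40 calls of 24 h, 48 h and 1 week became 25 at 24 h, 44 at 48 h and 37 at 1 week.

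Sham hearts also changed with time. The F test between the 6 sham groups called 25 of the 111 carriers (22.5%), against 20.4% of all genes. Slc44a2 had the smallest adjusted p (0.00023), followed by Slc10a6, Slc29a1, Slc39a1, Slc35b2 and Slc35d1. Slc39a1 read 1564, 1294 and 855 at 1 h and 551, 350.2 and 579 at 1 week in sham, while its infarct arrays read 905, 1013 and 908 and 1478, 1364 and 1742 at those times. Slc4a3, Slc25a11, Slc25a20 and Slc25a4 were not called between times in sham (adjusted p from 0.11 to 0.99). Between the lower and the upper region of sham hearts, limma called 0 carriers and 0% of all genes in either direction, with 5 arrays of the lower region, and 15 carriers and 961 of all genes had an unadjusted p below 0.05. Slc7a1, Slc25a17, Slc25a28, Slc27a1, Slc29a1, Slc35b1 and Slc38a10 read lower in the lower region in all 5 pairs. Slc1a4, Slc5a6, Slc6a9, Slc22a17 and Slc31a1 read higher there in all 5. The infarct lies low in the ventricle and its sham control and the remote region high, so position is part of both comparisons.

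The infarct difference itself varied between times for 68 carriers (61.3%), against 64.7% of all genes (F test of limma, adjusted p below 0.05). In the infarct, 87 carriers were called at 1 or more times, 30 at 3 or more, and 24 at none. Of the 87, 48 were only higher, 31 only lower and 8 higher at some times and lower at others. The same counts over all genes are not given here, so these describe the members only. In the test for a difference at any time, 73% of the carriers passed, against 77.7% of all genes.

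Over all 59 arrays the log2 values of Slc25a4 were most like those of Slc25a11 (Pearson r = 0.92), Slc4a3 (0.92) and Slc25a20 (0.88). Those of Slc4a3, the member with the largest F value in the infarct against sham, were most like those of Slc25a11 (0.94), Slc12a7 (0.92) and Slc25a4 (0.92). These correlations share arrays, regions and times and describe the data only.

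Genes that work beside the carriers moved as follows. Of 14 tested genes of the mitochondrial outer membrane and protein import, 0 higher and 6 lower were called in the infarct at 24 h, 0 higher and 6 lower at 48 h and 0 higher and 10 lower at 1 week, with a median of -0.80 at 1 week. Of all genes, 24%, 25.8% and 25.7% were lower at these times. Timm23, a pore of the inner membrane, and Timm44, its partner, were lower (-1.31 ± 0.13 and -1.28 ± 0.16) at 1 week, while the porin Vdac2 stood at -0.14 ± 0.15 and was not called. Of 3 carriers of the family without an Slc25 symbol, the uncoupling protein Ucp3 was lower (-2.38 ± 0.34) and Mtch2 (-1.09 ± 0.14) at 1 week, and Mtch1 was higher by 0.55 ± 0.16. Among 19 tested enzymes that act on the carried substrates, 5 higher and 9 lower were called at 48 h and 5 higher and 9 lower at 1 week. Of all genes, 25.1% and 34.9% were higher and 25.8% and 25.7% lower at these times, so the rises are no result by themselves. Crat and Cpt2, which handle acylcarnitines, were lower (-2.83 ± 0.19 and -2.29 ± 0.17) at 1 week, and Ckm, the creatine kinase of muscle (-4.00 ± 0.34). Arg1, which splits arginine, was higher by 6.04 ± 0.61 at 48 h. Of 4 tested genes of the sodium pump, 1 higher and 3 lower were called at 48 h, against 25.1% and 25.8% of all genes. The lower ones were Atp1b1, Atp1b2 and Fxyd1.

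Of 22 tested genes of the amino acid and integrated stress response, 3 higher and 1 lower were called in the infarct at 4 h, 12 higher and 2 lower at 24 h, 13 higher and 1 lower at 48 h and 7 higher and 3 lower at 1 week, with medians of 0.60 at 24 h and 0.67 at 48 h. Of all genes, 5.25%, 18.6%, 25.1% and 34.9% were higher and 6.69%, 24%, 25.8% and 25.7% lower at these times, so the count of rises at 1 week was near that of genes at large. Atf4 was higher by 1.55 ± 0.15 at 24 h, Asns, which makes asparagine, by 1.21 ± 0.12, and Psat1, of serine synthesis, by 1.46 ± 0.26. At 24 h Slc3a2, Slc7a5 and Slc38a2 were higher too, by 1.24, 1.46 and 0.75. Phgdh, the first enzyme of serine synthesis, stood at 0.00 and was not called.

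Of the 37 carriers that did not reach the level for testing, 31 were classed as plasma membrane, 4 as other organelles and 2 carry an Slc25 symbol. For these genes nothing is said here of a change. Another limit lies in the probe sets. In the infarct, 39 called changes belonged to carriers with more than 1 probe set, and for 14 of them another probe set of the gene, most often a dim one, had the opposite sign. The members concerned were Slc23a3, Slc29a1, Slc30a4, Slc38a10, Slc38a2, Slc6a2 and Slc6a8.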

How the data were processed

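RNA of 59 mouse heart pieces was read on Affymetrix MG-U74Av2 arrays. The authors deposited 1 linear intensity per probe set and array, and the scaling that made it is not given in the sources used here. The 12488 probe sets held 66 controls, 396 assigned to several genes, 1193 to none and 10833 to 1 gene, and the probe set with the highest mean stood for each of 8251 genes. The members and gene lists were chosen with earlier results of these data known. Values were taken as log2(intensity + 45.6), the offset being 0.25 times the median. Genes at 108.2 (the 40th percentile) on 3 arrays were tested, which left 6670. limma 3.58.1 in R 4.3.3 fitted 23 groups of region and time with the title number as a random block (correlation 0.148), leaving 36 residual degrees of freedom, and the script was tested on simulated data. The median SE of infarct against sham was 0.178. Arrays have no depth in counts, so their number, 3 per group, limits the precision. Infarct and remote pieces with the same title number were taken as the same mouse, so that the number pairs them. Named genes were the 6 largest rises and falls per time in infarct against sham and the 3 largest in the other comparisons, among called genes without overlap of arrays, every tested Slc25 gene, up to 4 genes per substrate group at its time with the most calls, the 6 that varied most in sham, and a panel of 23 genes, of which 17 were tested. Slc7a8, Slc11a2, Slc27a4, Slc31a1, Slc35b1, Slc38a10, Slc39a7 and Slc50a1 were named after their values were seen. The 3 carrier-binding genes were set apart after the member list was seen. Alternatives were quantile normalization, an offset of 0.05 or 1 times the median, testing without the filter, the mean of all probe sets, no block or a fixed block, sham lower and upper together, a fit of the groups compared alone, and leaving out each array.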

Additional observations from a re-analysis of the deposited data

Results flagged for a closer look

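The infarct difference from sham varied between the 6 times for 68 of the 111 tested carriers (F test of limma, adjusted p below 0.05). This was 61.3%, against 64.7% of all genes. Infarct and remote tissue differed at 1 or more times for 63 carriers (56.8%) by the same kind of test, against 67.2% of all genes.

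For 8 carriers the infarct was called higher than sham at some times and lower at others. The same count over all genes is not given here. The adjusted p of the test between times was 0.00062 for Slc12a2, a sodium, potassium and chloride importer, and 0.02 for Slc22a17. It was 0.0037 for Slc25a17, the peroxisomal carrier, and 8.2e-07 for Slc25a36, the pyrimidine nucleotide carrier. Slc35b2, which brings the sulphate donor into the Golgi, had 3.8e-06, with differences of -0.37 at 4 h, -0.34 at 24 h and 0.68 at 1 week. Slc35d1 had 0.0037, with 0.39 at 1 h and -0.28 at 48 h. Slc38a10 had 0.00048, with -0.49 at 24 h and 0.32 at 1 week. Slc66a2 had 4.9e-05, with -0.35 at 1 h and 0.39 at 48 h. Of these carriers, Slc25a17, Slc25a36, Slc35b2 and Slc35d1 were also called between times in sham.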

How the results depend on the processing

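Of 369 called differences of the named genes, 328 stayed called in the same direction with quantile normalization, 353 without the filter, 356 and 359 with the smaller and the larger offset, 336 with the mean of all probe sets and 259 in the fit of the groups compared alone, which has fewer samples. With an array left out, 1789 of 2214 did. With the mean of all probe sets 3 differences turned sign, Slc38a2 in the infarct at 48 h (-0.054), Slc38a10 in the infarct at 1 week (-0.21) and Slc29a1 in the remote region at 24 h (0.032). In counts of carriers called against sham in the infarct, pooling the sham regions gave 3 at 1 h, and the fit of the groups alone gave 0 at 1 h and 0 at 8 weeks. In the remote region that fit gave 2 at 1 h, 0 at 24 h and 0 at 48 h, and at 4 h the larger offset, no filter and pooled sham regions gave 2 each. Between infarct and remote region, the fit without the replicate block gave 2 at 1 h and 2 at 8 weeks, and the fit of the groups alone gave 3 at 1 h, 1 at 4 h and 0 at 8 weeks. The cause of these shifts was not tested. With each array left out in turn, the counts ran from 2 to 4 at 1 h, 5 to 7 at 4 h and 9 to 24 at 8 weeks in the infarct against sham. In the remote region they ran from 1 to 7 at 1 h, 0 to 1 at 4 h, 2 to 10 at 24 h, 5 to 9 at 48 h and 27 to 39 at 1 week. Between infarct and remote region they ran from 1 to 5 at 1 h and 0 to 16 at 8 weeks. With a fixed replicate block, 99 of 120 called differences between infarct and remote region stayed called. Dim probe sets limit what can be seen for genes near the level for testing.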
